A study of Mus musculus with 21 samples.

Results

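FS cells and AFX cells are 2 kinds of cultured mouse pluripotent stem cell, and the comparison described here sets the 6 FS samples of the series against its 3 AFX samples, 9 of 21 samples in all. The labels call FS cells formative stem cells and give their medium as A3XR. They came from 2 lines, line 1 (5cdr1) at passages 10, 11 and 18 and line 2 (5cdr2) at passages 12, 13 and 16. AFX cells are labelled EpiSCs (epiblast stem cells), carry E14, the name of an embryonic stem cell line, in their descriptions, and were kept in a medium of the same name at passages 14, 15 and 16. The 3 AF samples, EpiSCs that carry E14 as well and were kept in AF medium at the same passage numbers, are given beside them. The labels do not spell out the media. In this field A3XR is a low-activin medium with the tankyrase inhibitor XAV939 and a retinoic acid receptor inverse agonist, AFX holds activin, FGF2 and XAV939, and AF holds activin and FGF2. Tankyrase inhibition stabilises AXIN and restrains WNT signalling, and it is shared by FS and AFX. Each cultured sample held 1000 cells, and RNA was sequenced from total RNA. Line and medium differ together between FS and AFX and cannot be told apart, AFX is 1 line, and passages of a line are not separate derivations, so that the p-values below measure the spread between passages and between 2 FS lines.

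Pluripotency passes through stages in the embryo. The naive state of the preimplantation epiblast gives way, after implantation, to a formative state in which cells gain competence for both germline and somatic fates, and then to a primed state that approaches gastrulation. EpiSCs are the cultured form of the primed state and commonly express low levels of primitive streak genes under activin, a TGF-beta family ligand that acts like NODAL. Counts were scaled to CPM, counts relative to a common library total, and a gene is called here where edgeR's quasi-likelihood test gave a Benjamini-Hochberg adjusted p under 0.05 and both FS lines lay on the same side of AFX. Log2 fold changes are FS minus AFX with their standard error (SE). For FS the lowest, median and highest of 6 samples are given, and for AFX the samples at passages 14, 15 and 16 in that order.

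Total counts ran from 7753188 to 15916800 in FS and from 7703118 to 13965234 in AFX. Every pair of passages within an FS line or group differed by more than counting error. The AFX sample at passage 16 stood apart from the other AFX samples in genes of the NODAL pathway, and the FS lines differed in sex chromosome transcripts. The X-inactivation transcript Xist was at 771, 580.1 and 291 CPM in line 1 and at or under 1.01 CPM in line 2 and AFX. The Y-linked gene Ddx3y was at or under 0.386 CPM in line 1, 80.9, 102 and 89.97 CPM in line 2 and 60.04, 74.3 and 72.9 CPM in AFX. Line 2 did not overlap AFX at Ddx3y and lay above it. Another Y-linked gene, Kdm5d, named after its values were seen, was at 0.114 ± 0.139 CPM in AFX (SD, n = 3) and 19.4 ± 5.32 CPM in AF, and stood 8.23 log2 units above AFX in line 2 and 0.16 in line 1.

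Of 16052 genes tested, 1397 were called (8.7%), with 607 above AFX (3.78%) and 790 below it (4.92%). At least 2-fold differences made up 749 of the 1397. Every gene with an adjusted p under 0.05 had the same sign in both lines, and 806 of the 1397 were also called in each line tested separately, 345 higher and 461 lower. In the fit with the lines as separate groups, line 1 differed from AFX at 1335 genes (8.32%) and line 2 at 2124 (13.2%), and 618 genes (3.85%) differed between the lines. The ranges of FS and AFX did not overlap for 1280 of the 1397, and for 2406 of all genes tested (15%). Leaving out AFX passage 15 lowered the count of called genes to 830, and leaving out AFX passage 16 lowered it to 820.

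The genes called lower in FS were concentrated on chromosome 15. Of 561 genes tested there, 265 were called (47.2%), 259 of them lower in FS and 6 higher, whereas the share called on the other chromosomes was 5.44% to 13.5%. Chromosome 15 thus held 32.8% of all genes called lower. Among its 355 protein-coding genes with a mean of at least 10 CPM, 337 had a negative log2 fold change, 224 were called lower and 2 higher, and the median was -0.58. The same median was -0.56 for line 1 and -0.59 for line 2, and medians on the other chromosomes lay between -0.018 and 0.15.

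The shift was on the AFX side and ran along the chromosome. Set against the mean of the AF samples, the median level of chromosome 15 genes was 0.49, 0.57 and 0.54 log2 units higher in AFX at passages 14, 15 and 16, and between -0.063 and 0.014 in the 6 FS samples. In 11 bins of 10 Mb, holding 6 to 79 genes each, the median log2 fold change was between -0.68 and -0.41. AFX minus AF gave a median of 0.53 on this chromosome. AFX and AF carry E14 in their descriptions alike, and the 3 AFX samples are passages of 1 line. DNA was not measured in these samples.

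**Figure D1:**
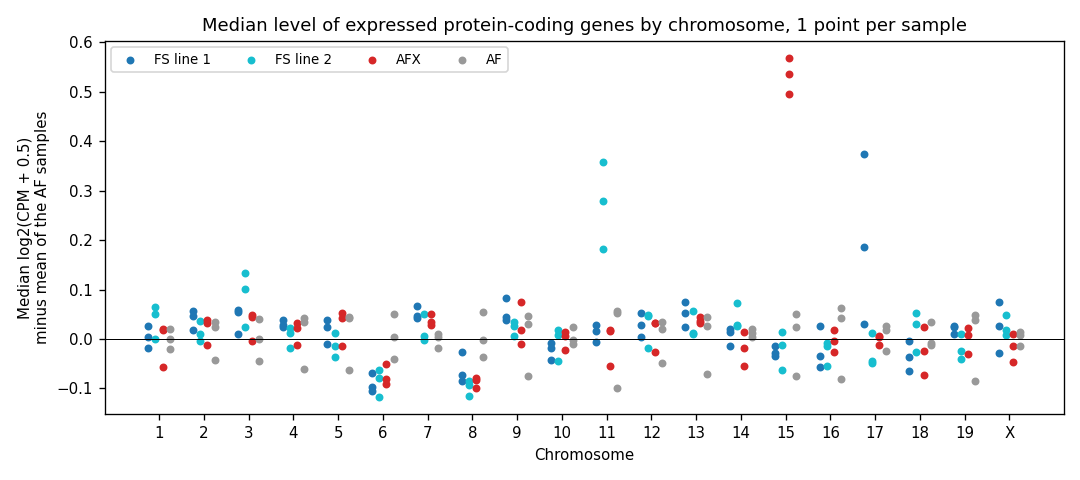
Median level of expressed protein-coding genes on each chromosome (log2 of CPM plus 0.5, minus the mean of the AF samples), with 1 point per sample. On chromosome 15 the AFX samples lie at 0.49 to 0.57 and the FS and AF samples near 0, on chromosome 11 FS line 2 lies at 0.18 to 0.36, and on chromosome 17 FS line 1 reaches 0.37.

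Smaller shifts of the same kind separated the FS lines. On chromosome 11 the 3 line 2 samples at passages 12, 13 and 16 were 0.18, 0.28 and 0.36 log2 units above the AF mean, against -0.0055 to 0.028 in line 1. On chromosome 17 the line 1 samples were at 0.031, 0.19 and 0.37 at passages 10, 11 and 18, against -0.049 to 0.011 in line 2. No sample lay beyond -0.12 or 0.13 on another chromosome. With chromosome 15 left out of the fit, 1015 of 15511 genes were called (6.54%), 510 higher (3.29%) and 505 lower (3.26%), so that the share of higher calls was 50.2% in place of 43.5%. Of the 1132 genes called elsewhere in the genome, 1012 remained called in that fit. Members of the gene lists below that lie on chromosome 15 are marked as such, and a difference near the median of that chromosome cannot be told apart from its shift. In the lists below each count of called members is set against the 8.7% called, 3.78% higher and 4.92% lower, among all genes tested. Genes were kept for testing by their counts over FS, AFX and AF together. A member near 0 in 1 group could pass only through the others. Shares that rest on such members are partly set by that filter.

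Pabpc1, which encodes the main cytoplasmic poly(A)-binding protein and was chosen after its values were seen, shows the pattern at a highly expressed gene of chromosome 15. It was at 1261, 1450.2 and 1488 CPM in FS and 2741, 2669 and 2555 CPM in AFX, and AF was at 1538, 1447 and 1528 CPM. Its log2 value was -0.92 ± 0.08 (adjusted p 3.62e-06). Gtse1, a p53-linked mitotic gene there, was at 62.1, 73.1 and 94.8 CPM in FS and 140.1, 123 and 129 CPM in AFX (-0.79 ± 0.12, adjusted p 5.37e-04). Adsl, an enzyme of purine synthesis, was at 74.0, 89.3 and 100.04 CPM in FS and 146, 149 and 132 CPM in AFX (-0.67 ± 0.13, adjusted p 0.00348). For each of these 3 genes FS and AF overlapped and AFX lay above both.

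Myh9, on the same chromosome, went the other way. It encodes the heavy chain of nonmuscle myosin IIA, a motor of the cell cortex, and was at 1021, 1133 and 1883 CPM in FS and 233, 276 and 301 CPM in AFX, 4.75-fold higher in FS (2.25 ± 0.22, adjusted p 2.13e-05). AF was at 864, 1407 and 1064 CPM, with AFX minus AF at -2.04 log2 units (adjusted p 3.15e-04). The low level was therefore found in the AFX samples, while FS and AF overlapped.

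Hprt, the X-linked enzyme that salvages hypoxanthine and guanine for purine nucleotides, was among the genes with the largest rise. It was at 61.8, 69.7 and 89.4 CPM in FS and 0.647, 0.135 and 0.985 CPM in AFX, which gave 6.80 ± 0.32 on the log2 scale (adjusted p 3.09e-09). AF was at 0.266, 0.189 and 0.701 CPM. AF and AFX were thus both near 0. An HPRT-deficient subline of E14 is known to carry a deletion in Hprt, but the labels do not name the subline. The companion salvage enzyme Aprt, which uses adenine, was at 29.001, 39.8 and 56.2 CPM in FS and 46.0, 53.5 and 47.3 CPM in AFX (-0.27 ± 0.16, adjusted p 0.347). Of 18 tested genes of purine salvage, synthesis and breakdown, 3 were called, against 8.7% of all genes, with 1 higher (Hprt) and 2 lower, Adsl on chromosome 15 and Impdh1, the first committed enzyme of guanine nucleotide synthesis, and their median was 0.029 against 0.0040 over all genes tested. Impdh1 was at 27.8, 29.9 and 35.8 CPM in FS and 39.4, 48.2 and 42.5 CPM in AFX (-0.48 ± 0.13, adjusted p 0.0257), a call lost without AFX passage 15 or 16, with values of -0.54 to -0.40 over the fits that left out 1 sample.

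Other genes high in FS were nearly silent in AFX. Ccl19, a chemokine that attracts CCR7-bearing lymphocytes, was at 11.2, 11.9 and 17.9 CPM in FS without a count in AFX, at least 43.3-fold higher (adjusted p 3.42e-06). AF was at 0, 0.284 and 0 CPM for Ccl19. The predicted gene Gm2564, next in size and uncertain in its reads, was at 8.49, 11.8 and 16.4 CPM in FS without a count in AFX or AF, at least 41.1-fold higher. Nudt12, a peroxisomal hydrolase of NAD-related nucleotides, was at 6.18, 10.6 and 13.2 CPM in FS without a count in AFX, at least 34.7-fold higher (adjusted p 1.53e-06). AF held 8.24, 13.3 and 6.91 CPM of Nudt12, so that AFX alone of the 3 groups lacked it.

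A second set was chosen after its values were seen, from coding genes with clear symbols. Slitrk5, a neuronal transmembrane protein, was at 7.46, 12.9 and 18.997 CPM in FS and 0.288, 0 and 0.716 CPM in AFX (5.16 ± 0.58, adjusted p 6.64e-05). Penk, the precursor of enkephalin peptides, was at 5.42, 11.01 and 16.7 CPM in FS and 0.647, 0 and 0.179 CPM in AFX (4.98 ± 0.51, adjusted p 3.55e-05), with AF higher than both at 67.0, 60.8 and 56.7 CPM. With AFX so close to 0, single AFX samples moved the fitted values, up to 6.11 for Slitrk5 without AFX passage 16 and 6.51 for Penk without AFX passage 14. Ehd3, a protein of endocytic recycling, was at 32.5, 51.3 and 61.6 CPM in FS, 3.09, 2.69 and 4.03 CPM in AFX and 4.39, 1.51 and 4.003 CPM in AF (3.89 ± 0.30, adjusted p 1.30e-06). FS and AFX did not overlap in any of the 3, and AF stood with FS for none of them.

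Nefm, the medium neurofilament subunit, was the other high gene of named function that rose by the naming rule for genes of at least 100 CPM. It was at 84.4, 128 and 244 CPM in FS and 16.04, 50.7 and 37.5 CPM in AFX (2.08 ± 0.42, adjusted p 0.00952), with AF at 72.2, 72.1 and 72.7 CPM, between them. Of the largest risers, Gm24312, n-R5s106 and n-R5s130 are ribosomal RNA loci of chromosome 8 whose reads can come from copies. They reached medians of 19.5, 18.9 and 18.6 CPM in FS and were at or under 0.575 CPM in AFX.

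**Figure D2:**
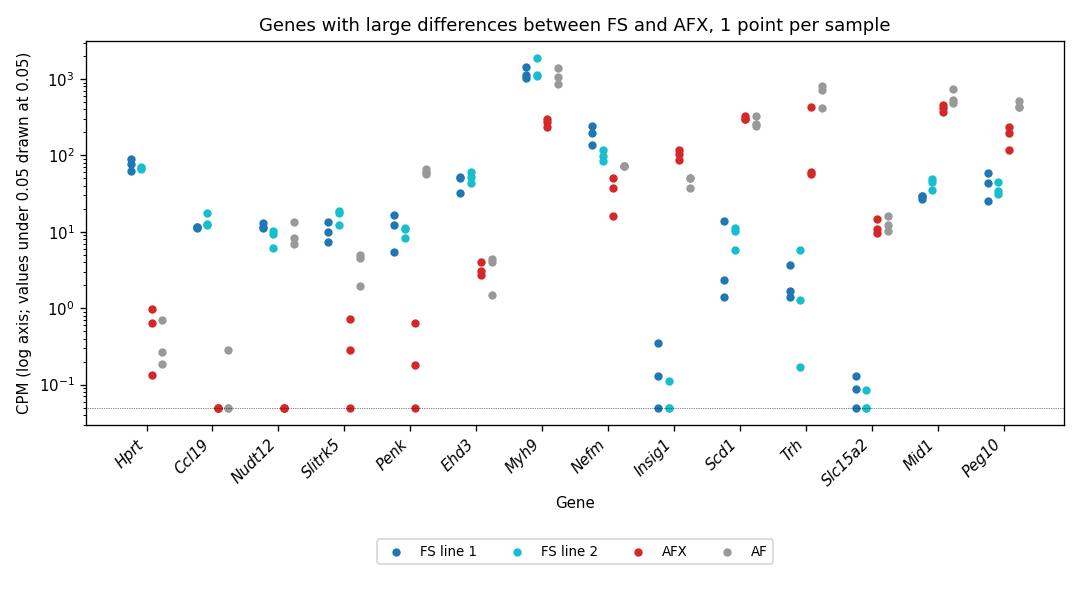
CPM on a log axis of 14 genes with large differences, 1 point per sample, with values under 0.05 drawn at 0.05. FS and AFX are separated at every gene shown, and AFX passage 16 lies well above the other AFX samples at Trh. AF overlaps AFX at Hprt, Ccl19, Ehd3, Scd1, Trh and Slc15a2.

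Among the genes that fell, Insig1 had the largest change. It encodes a protein of the endoplasmic reticulum that, when sterols are plentiful, holds back SCAP and the SREBP transcription factors and so limits the genes of sterol and fatty acid synthesis. In FS it was at 0, 0.0562 and 0.349 CPM, in AFX at 87.9, 106 and 118 CPM and in AF at 50.9, 51.3 and 37.8 CPM. The fitted difference from AFX was -9.97 ± 0.35 in log2 units (adjusted p 1.71e-10). Leaving out each FS or AFX sample in turn moved the fitted value from -11.06 to -9.61 and kept the call each time. The 201 bases from 250 to 50 before its RefSeq start (GRCm38.p6, chr5:28071162-28071362, plus strand), which end where the gene begins in GENCODE M21, are shown because the gene stands at the head of the pathway described next. The capitals mark a CCAAT box read on the opposite strand and the E-box CACGTG.
Insig1 promoter: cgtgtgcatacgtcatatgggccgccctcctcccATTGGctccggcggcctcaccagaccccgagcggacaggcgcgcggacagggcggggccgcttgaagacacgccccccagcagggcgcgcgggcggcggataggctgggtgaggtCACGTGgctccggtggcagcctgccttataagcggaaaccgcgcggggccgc
CCAAT, searched on both strands, was in 28.6% of the same stretch of 32851 promoter entries of the table and CACGTG in 4.36%, while the sterol response element core TCACNCCAC, found in 0.816%, had no match in this window. These matches describe the letters and do not show binding.

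Genes of sterol and fatty acid synthesis were called in both directions. Of 35 tested, 10 were called (28.6%, against 8.7% of all genes), 6 higher and 4 lower in FS, and the median log2 fold change was 0.0605 against 0.0040 over all genes. Among regulators, Insig2, a second retention protein, was at 7.78, 9.77 and 12.4 CPM in FS and 7.19, 7.13 and 10.6 CPM in AFX (0.24 ± 0.21, adjusted p 0.542), and Scap, the escort of SREBP, was at 15.6, 24.3 and 30.2 and 24.6, 26.4 and 32.0 CPM (-0.22 ± 0.18, adjusted p 0.522). Srebf1, which drives fatty acid genes, was at 76.98, 99.9 and 129 CPM in FS and 71.8, 60.01 and 74.7 CPM in AFX (0.56 ± 0.16, adjusted p 0.0377). That call was lost without FS passage 10, 11, 16 or 18 or AFX passage 14, 15 or 16, with values of 0.47 to 0.62. Srebf1 lies on chromosome 11, where line 2 was raised by 0.18 to 0.36 log2 units, and stood at 0.77 in line 1 and 0.30 in line 2 against AFX. Srebf2, which drives sterol genes and lies on chromosome 15, was at 258, 283 and 328 CPM in FS and 395, 408 and 378 CPM in AFX (-0.45 ± 0.11, adjusted p 0.0191), and lost its call without AFX passage 14, 15 or 16 (-0.50 to -0.43).

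The enzymes moved in both directions. Scd1, the stearoyl-CoA desaturase that makes monounsaturated fatty acids, was at 1.39, 7.97 and 13.9 CPM in FS and 302, 324 and 297 CPM in AFX, with AF at 256, 331 and 239.8 CPM (-5.35 ± 0.51, adjusted p 1.17e-04). The desaturases of polyunsaturated fatty acids rose. Fads1 was at 156, 182 and 192 CPM in FS and 106, 112 and 96.5 CPM in AFX (0.78 ± 0.11, adjusted p 5.37e-04), and Fads2, chosen after its values were seen, at 141, 167 and 199 and 91.8, 118 and 119.96 CPM (0.62 ± 0.12, adjusted p 0.00432). Tm7sf2, a sterol reductase, was at 17.5, 21.5 and 24.4 CPM in FS and 10.4, 7.53 and 12.9 CPM in AFX (1.03 ± 0.20, adjusted p 0.00379). For Fads1, Fads2 and Tm7sf2 the AF values overlapped those of FS, and AFX was lower than AF (adjusted p 0.00706, 0.0225 and 0.0240). For Scd1 and Insig1, in contrast, the low level was that of FS. The remaining calls of the list, given after their values were seen, were small. Acly and Acaca, which supply and carboxylate acetyl-CoA, were higher in FS by 0.62 ± 0.14 and 0.44 ± 0.10 on the log2 scale, and lost their calls without AFX passage 14 or 15 (0.53 to 0.74) and without AFX passage 14 or 16 (0.40 to 0.47). Both lie on chromosome 11 too, at 0.45 in line 1 and 0.78 in line 2 for Acly and at 0.41 and 0.47 for Acaca. Sqle, a sterol enzyme on chromosome 15, stood at -0.67 ± 0.14, and lost its call without AFX passage 16 (-0.81 to -0.54).

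Slc15a2, Trh and Mid1 also fell, without overlap between FS and AFX. Slc15a2, a proton-coupled peptide transporter, had at most 3 counts in each FS sample against 14.7, 10.8 and 9.76 CPM in AFX, at least 40.5-fold lower (adjusted p 2.72e-08), and AF was at 10.2, 16.1 and 12.4 CPM. Trh, the precursor of thyrotropin-releasing hormone, was at 0.170, 1.53 and 5.85 CPM in FS and 57.0, 60.5 and 434 CPM in AFX (-6.37 ± 0.85, adjusted p 0.00147). AFX passage 16 was well above the other AFX passages and lay within the range of AF, which was at 804, 412 and 723 CPM, and without that sample the value was -4.73, still called. Mid1, an X-linked ubiquitin ligase of microtubules, was at 26.9, 32.1 and 48.9 CPM in FS and 454, 366 and 421 CPM in AFX (-3.53 ± 0.19, adjusted p 2.87e-08).

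The core pluripotency factors did not pass the test. Of 9 tested, none was called in either direction, against 8.7% of all genes, and their median log2 fold change was -0.22. Pou5f1 was at 374, 417 and 513 CPM in FS and 522, 385 and 452 CPM in AFX (-0.084 ± 0.14, adjusted p 0.779, 95% interval -0.36 to 0.19). Sox2 was at 45.3, 70.1 and 83.1 and 55.7, 108 and 97.1 CPM (-0.37 ± 0.23, adjusted p 0.371), and Nanog at 11.8, 22.1 and 30.8 and 34.6, 10.2 and 34.1 CPM (-0.28 ± 0.33, adjusted p 0.675). The ranges of FS and AFX overlapped for each.

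Genes of the naive state were low in both. Zfp42 (also called Rex1) stayed at or under 0.212 CPM in the 9 samples, close to the 0.181 to 0.404 CPM that 3 counts represent in them, and AF was at 2.26, 2.46 and 5.30 CPM. Klf5 was at 2.65, 4.45 and 7.92 CPM in FS and 4.03, 8.61 and 5.01 CPM in AFX (-0.28 ± 0.35, adjusted p 0.700), with AF at 27.4, 41.1 and 27.7 CPM. Of 7 naive genes tested, 1 was called, the nuclear receptor Esrrb, at 0.543, 1.12 and 1.81 CPM in FS and 1.51, 4.98 and 6.80 CPM in AFX (-1.88 ± 0.53, adjusted p 0.0395). FS overlapped AFX at Esrrb, and the call was lost without FS passage 12, 13, 16 or 18 or AFX passage 15 or 16 (-2.30 to -1.40). The median of the 7 was -0.28.

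Genes that mark the formative and early postimplantation epiblast were expressed in both FS and AFX, and most were not called. Otx2, the transcription factor that opens the exit from naive pluripotency, was at 62.4, 97.4 and 122 CPM in FS and 58.8, 93.8 and 95.2 CPM in AFX (0.19 ± 0.21, adjusted p 0.636, 95% interval -0.21 to 0.60). Its partner Pou3f1 (Oct6) was at 43.1, 57.3 and 86.0 and 55.5, 80.5 and 70.8 CPM (-0.20 ± 0.19, adjusted p 0.596). The de novo DNA methyltransferase Dnmt3b was at 1282, 1585 and 2084 and 1361, 1149.7 and 1466 CPM (0.32 ± 0.19, adjusted p 0.353), and Fgf5, a ligand of the postimplantation epiblast, at 59.5, 93.7 and 134 and 94.6, 114 and 158 CPM (-0.39 ± 0.26, adjusted p 0.402). FS overlapped AFX at these 4 genes.

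Of 13 genes on the formative list, 2 were higher and 1 lower in FS, 3 calls against 8.7% of all genes, with a median of 0.0073. Grhl2, an epithelial transcription factor on chromosome 15, rose against the direction of that chromosome, from 13.7, 8.75 and 12.5 CPM in AFX to 19.3, 25.1 and 30.1 CPM in FS (1.11 ± 0.18, adjusted p 0.00103), and AF was at 19.8, 18.1 and 20.7 CPM. Zic5 was at 88.5, 107 and 137 CPM in FS and 76.9, 93.4 and 64.01 CPM in AFX (0.49 ± 0.15, adjusted p 0.0492). Sall2 was at 74.8, 87.3 and 117 and 97.1, 137 and 171 CPM (-0.55 ± 0.16, adjusted p 0.0437). The Zic5 call was lost without FS passage 12, 13, 16 or 18 or AFX passage 14 or 16 (0.36 to 0.64) and the Sall2 call without FS passage 10, 12, 13 or 16 or AFX passage 15 or 16 (-0.74 to -0.35), and FS and AFX overlapped at both.

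**Figure D3:**
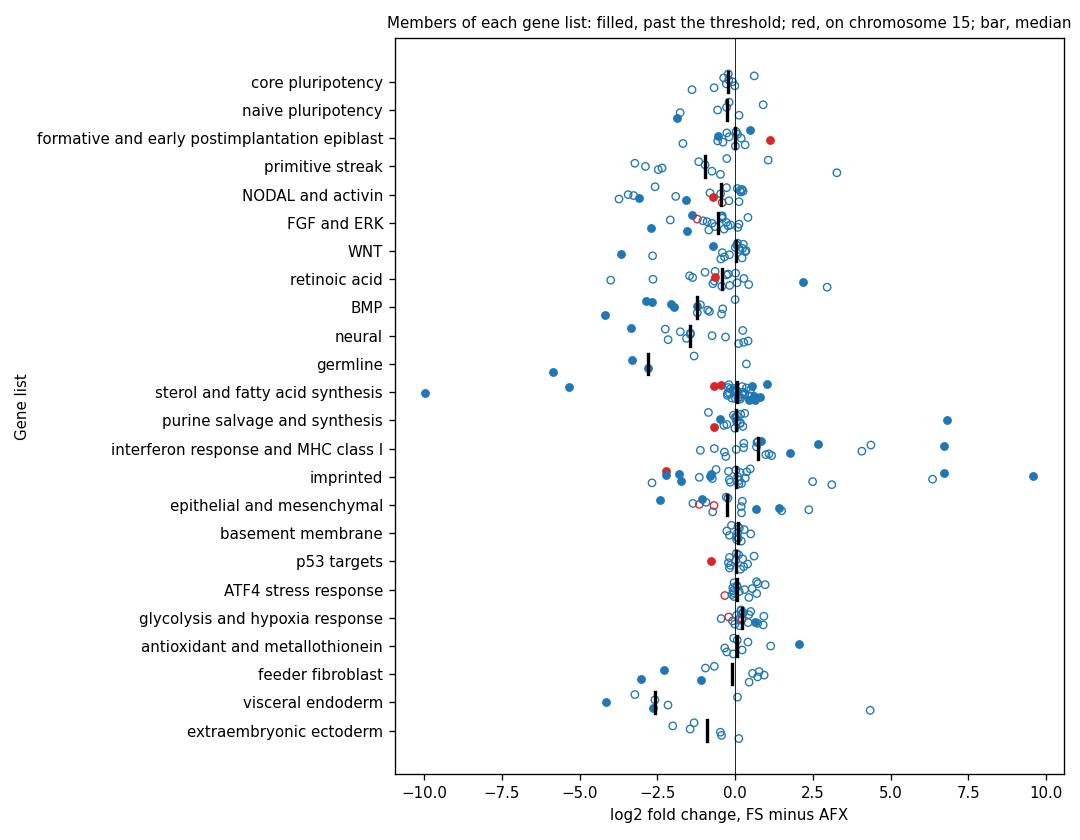
Log2 fold change, FS minus AFX, of the tested members of 24 gene lists, 1 circle per gene, with a bar at the median of each list. Filled circles are called, red circles lie on chromosome 15, and genes without counts in 1 group take extreme fitted values that are not fold changes to be read literally.

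Primitive streak genes, which mark cells entering gastrulation, were low and variable in both kinds of culture. None of 11 tested was called, against 8.7% of all genes, and 9 had a negative log2 fold change with a list median of -0.97. T (Brachyury) was at 0, 1.05 and 32.6 CPM in FS, where passage 10 of line 1 was the highest, and at 17.1, 16.01 and 9.31 CPM in AFX (-1.17 ± 1.36, adjusted p 0.675). Without that FS sample T passed the test at -3.64. Foxa2, a factor of definitive endoderm and node, was at 0, 1.57 and 11.6 and 11.4, 16.3 and 32.7 CPM (-2.47 ± 0.95, adjusted p 0.151). Eomes was at 25.7, 39.4 and 54.8 and 37.9, 54.9 and 77.5 CPM (-0.47 ± 0.32, adjusted p 0.429), and Mixl1 was at or under 1.25 CPM in all 9 samples. Summed over the list, the samples held 38.2 to 159 CPM in FS, 88.5 to 197 CPM in AFX and 229 to 786 CPM in AF.

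NODAL signals through the coreceptors Tdgf1 (Cripto) and Cfc1 and induces its own antagonists Lefty1, Lefty2 and Cer1, whose transcripts serve as a readout of the pathway. In these data the antagonists depended on 1 sample. Lefty1 was at 0, 0.756 and 4.76 CPM in FS and 0, 0.673 and 46.0 CPM in AFX, with AF at 164, 86.8 and 215 CPM. Its log2 fold change was -3.27 ± 1.44 (adjusted p 0.218), and 2.68 without AFX passage 16, which turned its direction. Lefty2 was at 0, 0.149 and 0.850 and 0, 0.269 and 10.5 CPM (-3.44 ± 1.21, adjusted p 0.116), and 1.61 without AFX passage 16. It passed the test without AFX passage 14, where the values over all fits ran -4.04 to 1.61.

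Cer1 was at 0, 1.19 and 7.54 CPM in FS and 7.26, 6.32 and 68.8 CPM in AFX (-3.74 ± 1.06, adjusted p 0.0624), and -1.73 without AFX passage 16. It passed the test without FS passage 10. Nodal itself was at 6.37, 4.25 and 4.71 CPM in FS line 1, 0.852, 1.46 and 0.482 CPM in FS line 2 and 1.15, 0.807 and 10.1 CPM in AFX (-0.47 ± 0.87, adjusted p 0.805), and 1.53 without AFX passage 16. Tdgf1 was at 0.257, 1.38 and 3.82 and 6.18, 0.538 and 22.2 CPM (-2.58 ± 0.80, adjusted p 0.0788), passed the test without AFX passage 15 and was -1.17 without AFX passage 16. At each of these 5 genes AFX passage 16 was the highest of the AFX samples and FS overlapped AFX.

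Of 19 NODAL and activin genes tested, none was higher and 3 were lower in FS (15.8%, against 4.92% of all genes), one of them on chromosome 15, and the list median was -0.47. Cfc1, a coreceptor, had at most 3 counts in each FS sample against 1.22, 0.942 and 1.16 CPM in AFX, at least 3.83-fold lower (adjusted p 0.00613), and AF was at 6.91, 13.04 and 9.91 CPM. Bambi, a decoy receptor for TGF-beta and BMP ligands, was at 15.8, 9.65 and 8.89 CPM in line 1, 25.4, 22.6 and 29.4 CPM in line 2 and 58.8, 57.5 and 52.5 CPM in AFX (-1.59 ± 0.31, adjusted p 0.00689). The lines differed at Bambi (adjusted p 0.00602), both lay below AFX, and AFX was higher than AF by 1.78 (adjusted p 0.0136). Foxh1, the DNA-binding partner of SMAD2, lies on chromosome 15 and was at 31.004, 35.5 and 37.4 CPM in FS and 52.3, 70.1 and 51.8 CPM in AFX (-0.73 ± 0.11, adjusted p 9.90e-04).

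The same AFX sample stood apart outside the pathway. Amot, a cytoskeletal regulator of the Hippo pathway chosen after its values were seen, was at 28.7, 32.8 and 48.2 CPM in FS and 51.6, 60.5 and 428 CPM in AFX (-2.31 ± 0.57, adjusted p 0.0335), and AF was at 578, 873 and 690.1 CPM. The call was lost without FS passage 12, 13, 16 or 18 or AFX passage 16, and without AFX passage 16 the value was -0.63. Chromosome 15 was raised in AFX passage 16 to the same extent as in the other AFX samples, at 0.54 against 0.49 and 0.57.

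**Figure D4:**
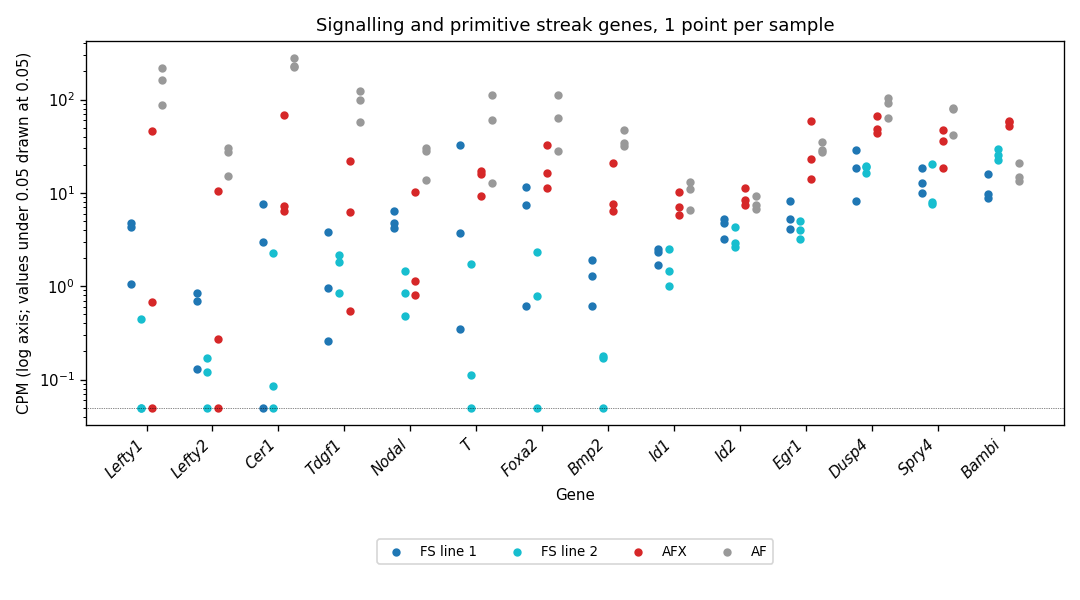
CPM on a log axis of 14 signalling and primitive streak genes, 1 point per sample, with values under 0.05 drawn at 0.05. AFX passage 16 is the highest AFX sample from Lefty1 to Nodal, AF lies above FS at each gene except T and Bambi, and FS lies wholly below AFX at Bmp2, Id1, Id2, Egr1, Dusp4 and Bambi.

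FGF signalling through ERK induces a set of feedback inhibitors and immediate transcription factors, which are read here as targets. None of 20 genes tested was higher in FS, 3 were lower (15%, against 4.92% of all genes), and 17 had a negative log2 fold change with a median of -0.54. Egr1, an immediate early transcription factor, was at 3.20, 4.58 and 8.10 CPM in FS and 13.95, 23.0 and 59.5 CPM in AFX (-2.70 ± 0.37, adjusted p 6.26e-04), and at -1.89 without AFX passage 16, still called. Dusp4, a phosphatase that inactivates ERK, was at 8.19, 18.7 and 28.99 and 44.4, 66.9 and 48.7 CPM (-1.53 ± 0.28, adjusted p 0.00355). FS lay wholly below AFX at both genes, and AF stood at 35.2, 27.4 and 29.1 CPM for Egr1 and 91.6, 63.4 and 103 CPM for Dusp4.

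Spry4, a feedback inhibitor of receptor tyrosine kinases, was at 7.66, 11.4 and 20.6 CPM in FS and 18.3, 35.8 and 47.4 CPM in AFX (-1.40 ± 0.36, adjusted p 0.0319), a call lost without FS passage 11, 12, 16 or 18 or AFX passage 15 or 16 (-1.69 to -1.07). Dusp6 was at 34.1, 50.5 and 68.4 and 61.8, 60.8 and 77.2 CPM (-0.36 ± 0.18, adjusted p 0.270). Etv4 was at 14.5, 17.1 and 31.6 and 24.2, 28.3 and 37.96 CPM (-0.66 ± 0.26, adjusted p 0.143) and passed the test without FS passage 13, with values of -0.86 to -0.46. Its relative Etv5 was at 90.1, 123 and 207 and 140.4, 154 and 169.6 CPM (-0.23 ± 0.21, adjusted p 0.565). FS and AFX overlapped at each of these 4 genes.

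BMP signalling activates SMAD1 and SMAD5 and induces the ID genes, which block basic helix-loop-helix factors. All 13 tested genes of the list had a negative log2 fold change, 6 were called lower in FS (46.2%, against 4.92% of all genes) and none higher, with a median of -1.22. Bmp2, a ligand, was at 0, 0.395 and 1.91 CPM in FS and 6.47, 7.53 and 21.04 CPM in AFX (-4.18 ± 0.65, adjusted p 0.00182), and AF was at 32.2, 34.1 and 47.6 CPM. Id1 was at 1.01, 2.01 and 2.53 CPM in FS and 7.05, 5.79 and 10.1 CPM in AFX (-1.98 ± 0.31, adjusted p 9.81e-04). Both kept their calls when each sample was left out in turn, with Bmp2 at -4.83 to -3.43, the latter without AFX passage 16.

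Id2 was at 2.65, 3.78 and 5.27 CPM in FS and 7.41, 8.34 and 11.4 CPM in AFX (-1.23 ± 0.26, adjusted p 0.00707), and its call was lost without AFX passage 16 (-1.03). Id4, at 0.637, 1.33 and 1.69 and 2.44, 1.75 and 11.996 CPM (-2.05 ± 0.50, adjusted p 0.0171), lost its call without the same sample (-0.70). Msx1, a BMP-induced homeobox factor chosen after its values were seen, was at 0, 0.250 and 0.643 and 0.719, 0.538 and 4.30 CPM (-2.69 ± 0.77, adjusted p 0.0431), and lost its call without FS passage 10, 12, 13, 16 or 18 or AFX passage 16 (-3.09 to -1.16). Nog, the secreted BMP antagonist, chosen likewise, was at 0, 0.4999 and 1.16 and 4.60, 5.38 and 0.985 CPM (-2.85 ± 0.72, adjusted p 0.0232), and lost its call without AFX passage 14 or 15 (-3.31 to -2.49). The 6 called genes thus comprised 1 ligand, 4 targets and 1 antagonist, and Msx1 stayed under 5 CPM in both groups. Summed over the list, FS held 23.8 to 141 CPM, AFX 96.5 to 176 CPM and AF 146 to 277 CPM.

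WNT signalling genes gave 2 calls. Of 16 tested, none was higher and 2 were lower in FS (12.5%, against 4.92% of all genes), with a median of 0.029, and FS and AFX are both kept with the tankyrase inhibitor in their usual recipes. Axin2, the general feedback target, was at 8.63, 12.6 and 30.6 CPM in FS, 19.7, 17.4 and 20.1 CPM in AFX and 19.01, 9.26 and 30.6 CPM in AF (-0.34 ± 0.40, adjusted p 0.673, 95% interval -1.13 to 0.44). Lef1 was at 50.2, 63.7 and 102 and 70.4, 80.9 and 89.1 CPM (-0.18 ± 0.26, adjusted p 0.734), and Sp5 was at or under 5.42 CPM in FS and 1.16 CPM in AFX.

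The called WNT genes were Lgr5, a receptor for R-spondins, and Tcf7l2. Lgr5 was at 0, 0.235 and 2.66 CPM in FS and 3.60, 5.38 and 13.1 CPM in AFX (-3.68 ± 0.93, adjusted p 0.0319), and its call was lost without FS passage 11, 12, 13, 16 or 18 or AFX passage 15 or 16 (-5.27 to -2.95). Tcf7l2 was at 24.1, 26.8 and 29.8 and 27.7, 38.5 and 65.6 CPM (-0.70 ± 0.20, adjusted p 0.0449), and its call was lost without FS passage 10, 11, 12, 13, 16 or 18 or AFX passage 15 or 16 (-0.94 to -0.29).

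Retinoic acid binds the receptors RARA, RARB and RARG and induces, among others, Rarb, Cyp26a1, Dhrs3 and the anterior HOX genes. Of 19 tested genes of the pathway, 1 was higher and 1 lower in FS (10.5%, against 8.7% of all genes), with a median of -0.43. The receptor Rarg, on chromosome 15, was at 39.2, 48.9 and 50.8 CPM in FS and 82.8, 74.4 and 60.4 CPM in AFX (-0.64 ± 0.12, adjusted p 0.00354), while AF was at 49.3, 44.8 and 50.04 CPM. Meis1, a homeobox target, was at 6.27, 17.5 and 20.5 CPM in FS and 2.88, 1.61 and 5.82 CPM in AFX (2.18 ± 0.52, adjusted p 0.0192), a call lost without AFX passage 14 or 15 (1.88 to 2.77).

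The more direct targets were low. Rarb was at or under 0.772 CPM in FS and 1.07 CPM in AFX. Cyp26a1, which degrades retinoic acid, was at 10.7, 10.4 and 2.53 CPM in FS line 1, 0.0852, 0 and 2.41 CPM in line 2 and 4.75, 4.31 and 11.4 CPM in AFX (-0.72 ± 0.98, adjusted p 0.731), with AF at 94.4, 56.6 and 142 CPM. Dhrs3 was at 0.531, 1.17 and 2.64 and 1.44, 1.35 and 1.43 CPM (0.058 ± 0.47, adjusted p 0.965). Of 33 HOX genes, 4 passed the filter on low counts over the cultured samples. Their summed level was at most 0.212 CPM in FS and 0.0895 CPM in AFX, under 3 counts in each of the 9 samples, and up to 16.9 CPM in AF, so that FS and AFX could not be compared.

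Neural transcription factors gave 1 call. Of 13 tested genes 1 was lower in FS and none higher (7.69%, against 8.7% of all genes), with a median of -1.44. Sox1 was at 2.14, 12.8 and 38.2 CPM in FS and 9.92, 11.8 and 21.9 CPM in AFX (0.24 ± 0.75, adjusted p 0.892), and Pax6 at 0.112, 1.10 and 3.34 and 1.37, 0.404 and 9.04 CPM (-1.44 ± 0.83, adjusted p 0.334). Zic1 was at 0, 0.459 and 2.32 and 4.39, 0.538 and 16.8 CPM (-3.36 ± 0.88, adjusted p 0.0318), with AFX passage 16 the highest, and its call was lost without FS passage 12, 16 or 18 or AFX passage 14 or 16 (-4.05 to -1.84). The list summed to 318 to 451 CPM in FS and 446 to 550 CPM in AFX.

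Germline genes offered few transcripts to test. Of 18 on the list, 5 had enough counts, and 3 of the 5 were called lower in FS, against 4.92% of all genes, with a median of -2.81. Prdm1, with at most 3 counts in each FS sample, passed the filter on low counts only through the other groups. The share called lower is therefore partly set by that filter and is no result about germline genes as a set. The list summed to 2.44 to 14.02 CPM in line 1, below AFX at 44.4 to 94.1 CPM, and to 43.6 to 60.1 CPM in line 2, which overlapped AFX. Prdm1 (Blimp1), which specifies primordial germ cells and also marks endoderm, had at most 3 counts in each FS sample against 1.15, 0.538 and 8.33 CPM in AFX, at least 11.5-fold lower (adjusted p 0.00136), and AF was at 15.4, 13.1 and 23.8 CPM. Without AFX passage 16 that bound was 2.91-fold, and the call was kept. Sycp3, of the meiotic chromosome axis, was at 0.129, 2.38 and 4.27 CPM in FS and 41.6, 13.6 and 11.5 CPM in AFX (-3.31 ± 0.64, adjusted p 0.00644), and at -2.47 without AFX passage 14, still called. Rnf17, a Tudor-domain protein of germ cells, was at 0.129, 2.30 and 5.62 CPM in FS and 23.5, 22.5 and 12.3 CPM in AFX (-2.81 ± 0.63, adjusted p 0.0149), a call lost without AFX passage 14 or 15 (-3.15 to -2.58). AFX stood alone at both, since AF was at 0.399, 0.189 and 0.300 CPM for Sycp3 and 0.931, 0.378 and 1.10 CPM for Rnf17, and AFX exceeded AF by 6.22 and 4.59 (adjusted p 0.00414 and 0.00992). Line 1 was lower than line 2 at Rnf17 (adjusted p 0.0235).

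Imprinted genes are expressed from 1 parental allele and can gain or lose expression in culture. Of 27 tested, 2 were higher and 6 lower in FS (29.6%, against 8.7% of all genes). The median was 0.024 by the fitted values and -0.16 with genes that lack counts in 1 group taken at their bounds. Nnat was at 3.40, 8.52 and 16.04 CPM in FS without a count in AFX, at least 30.8-fold higher (adjusted p 8.88e-04), and AF was at 3.99, 1.04 and 0.701 CPM. Peg10 was at 25.2, 38.9 and 58.7 CPM in FS and 118, 198 and 239 CPM in AFX (-2.23 ± 0.24, adjusted p 8.26e-05), with AF at 434, 435 and 512 CPM. The order at Peg10 was therefore FS below AFX below AF without overlap.

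Phlda2, a growth suppressor of the placenta, was at 2.35, 4.28 and 5.95 CPM in FS and 20.8, 12.2 and 9.76 CPM in AFX (-1.80 ± 0.30, adjusted p 0.00131). Slc38a4, an amino acid transporter on chromosome 15, was at 5.66, 22.6 and 28.04 and 86.1, 104 and 81.5 CPM (-2.23 ± 0.38, adjusted p 0.00364), a larger fall than the median of its chromosome. Igf2, chosen after its values were seen, was at 12.6, 21.002 and 53.3 CPM in FS and 61.7, 86.0 and 100.4 CPM in AFX (-1.75 ± 0.42, adjusted p 0.0246), a call lost without FS passage 16 or AFX passage 15 or 16 (-2.11 to -1.59). The other called members of the list, Plagl1, Peg3 and Ndn, were likewise given after their values were seen. Plagl1 was at 1.12, 2.32 and 16.7 CPM in FS against at most 3 counts in each AFX sample, at least 15.2-fold higher and 6.94-fold without FS passage 11, lost without AFX passage 14, 15 or 16 (fitted values of 5.63 to 8.50). Peg3 stood at -0.79 ± 0.20 and Ndn at -0.81 ± 0.22, lost without FS passage 13, 16 or 18 or AFX passage 14, 15 or 16 for Peg3 (-0.89 to -0.74) and without FS passage 10, 11, 12, 13 or 18 or AFX passage 14 or 16 for Ndn (-0.96 to -0.57). H19, which shares the Igf2 locus, divided the FS lines, at 0.212, 0.129 and 0.0871 CPM in line 1, 26.6, 18.3 and 30.99 CPM in line 2 and 2.30, 3.23 and 1.43 CPM in AFX. Its lines differed by 7.38 on the log2 scale, line 2 minus line 1 (adjusted p 0.00681), and the joint comparison with AFX (2.49 ± 1.76, adjusted p 0.456) has no single direction. Meg3 was at 414, 515 and 607 CPM in line 1, 667, 819.9 and 841 CPM in line 2 and 543, 512 and 487 CPM in AFX (0.32 ± 0.19, adjusted p 0.328).

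Genes of the interferon response and of MHC class I, which presents peptides at the cell surface, were higher in FS where they were called, and their summed level set line 2 apart more than line 1. The list summed to 177 to 208 CPM in line 1, which overlapped the 133 to 194 CPM of AFX, to 274 to 309 CPM in line 2 and to 287 to 357 CPM in AF. Of 19 tested, 4 were higher (21.1%, against 3.78% of all genes) and none lower, 15 had a positive log2 fold change, and the median was 0.73. H2-D1, a class I heavy chain whose reads may be shared with other class I genes, was at 27.6, 37.9 and 50.1 CPM in FS and 14.96, 10.4 and 7.97 CPM in AFX (1.78 ± 0.25, adjusted p 4.76e-04). Tapbp (tapasin), which loads peptides, was at 12.4, 15.88 and 19.9 and 9.85, 8.21 and 9.40 CPM (0.82 ± 0.18, adjusted p 0.00961), a call lost without AFX passage 15, and AF was at 33.8, 34.0 and 48.0 CPM. H2-D1 and Tapbp lie on chromosome 17 too, where line 1 was raised, and stood at 1.40 and 0.89 in line 1 and at 2.07 and 0.75 in line 2. Isg15 was at 0.425, 1.17 and 2.14 CPM in FS without a count in AFX, at least 4.11-fold higher (adjusted p 0.00391).

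Of 16 epithelial and mesenchymal genes tested, 2 epithelial genes were higher and 2 mesenchymal genes lower in FS (25%, against 8.7% of all genes). The adhesion protein gene Epcam was at 169.6, 219 and 293 CPM in FS and 165, 114 and 143 CPM in AFX (0.67 ± 0.17, adjusted p 0.0192), and Esrp1, an epithelial splicing regulator, at 15.86, 31.8 and 51.1 and 14.7, 6.996 and 15.1 CPM (1.40 ± 0.35, adjusted p 0.0249). Epcam lies on chromosome 17, where line 1 was raised by up to 0.37 log2 units, and stood at 0.51 in line 1 and 0.81 in line 2 against AFX. The Epcam call was lost without AFX passage 15 or 16 (0.54 to 0.82), and the Esrp1 call without AFX passage 14, 15 or 16 (1.14 to 1.55). Vim, the intermediate filament vimentin, was at 182, 215 and 247 CPM in FS and 361, 505 and 479 CPM in AFX (-1.07 ± 0.15, adjusted p 4.23e-04), and Twist1 at 0.337, 0.599 and 0.904 and 3.45, 2.83 and 3.67 CPM (-2.42 ± 0.38, adjusted p 9.90e-04).

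Cdh1 (E-cadherin) was at 159.6, 229.9 and 342 CPM in FS and 248, 199 and 201 CPM in AFX (0.20 ± 0.22, adjusted p 0.644). Cdh2 (N-cadherin) was at 56.8, 57.8 and 64.6 and 64.1, 95.8 and 135 CPM (-0.72 ± 0.25, adjusted p 0.0997) and passed the test without AFX passage 14, with values of -0.95 to -0.42. In bulk samples such as these, fewer cells of a kind and less RNA per cell cannot be told apart. Vcan, the matrix proteoglycan versican, and Ccnd2, cyclin D2, both chosen after their values were seen, were lower in FS as well. Vcan was at 52.2, 75.9 and 125 CPM in FS and 195, 299 and 399.6 CPM in AFX (-1.86 ± 0.26, adjusted p 6.80e-04), and Ccnd2 at 35.7, 62.1 and 82.5 and 192, 150.0 and 132 CPM (-1.37 ± 0.23, adjusted p 0.00203).

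Markers of other cells that a culture could hold were scarce. Fibroblast markers summed to 21.9 to 55.5 CPM in FS, 35.3 to 62.1 CPM in AFX and 257 to 302 CPM in AF, and 3 of 10 tested were lower in FS, against 4.92% of all genes, and none higher. Col1a1 was at 7.15, 12.1 and 33.1 CPM in FS and 19.99, 11.97 and 6.98 CPM in AFX (0.45 ± 0.50, adjusted p 0.662), and Postn was at or under 0.901 CPM in the 9 samples. Col3a1 was at 0, 0.483 and 1.33 and 6.26, 0.538 and 7.34 CPM (-3.02 ± 0.68, adjusted p 0.0176), lost without AFX passage 14 or 16 (-3.65 to -2.63). Col1a2 was at 3.83, 4.70 and 9.78 and 13.1, 6.19 and 15.3 CPM (-1.10 ± 0.30, adjusted p 0.0322), lost without FS passage 10, 12, 13, 16 or 18 or AFX passage 14 or 16 (-1.38 to -0.86). Prrx1 had at most 3 counts in each FS sample against 0.503, 0.538 and 0.448 CPM in AFX, at least 1.71-fold lower (adjusted p 0.0479). That bound ran 1.59- to 1.83-fold with 1 sample left out. The Prrx1 call was lost without FS passage 10, 12, 13, 16 or 18 or AFX passage 14, 15 or 16. The summed level overlapped between FS and AFX, and the part of these markers in the lower Vim and Twist1 was not tested.

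Visceral endoderm markers summed to 2.90 to 28.7 CPM in FS, 6.62 to 25.6 CPM in AFX and 68.9 to 104 CPM in AF. Afp had no count in the cultured samples, and Ttr and Hnf4a had at most 2 counts in any FS or AFX sample. The lines stood apart, with line 1 at 24.6 to 28.7 CPM and line 2 at 2.90 to 3.37 CPM, below every AFX sample. Of 7 tested, 2 were lower in FS, against 4.92% of all genes, and none higher. Foxa1 was at 0.0852, 0.5003 and 2.83 and 2.95, 6.19 and 9.22 CPM (-2.64 ± 0.69, adjusted p 0.0304), lost without FS passage 13 or 16 or AFX passage 15 or 16 (-3.19 to -2.20). Gata6 had at most 3 counts in each FS sample against 0.288, 0.807 and 6.71 CPM in AFX, at least 8.98-fold lower (adjusted p 0.00952). Without AFX passage 16 the bound was 1.89-fold and the call was lost. Extraembryonic ectoderm markers summed to 40.7 to 64.7 CPM in FS and 56.2 to 91.0 CPM in AFX, with none of 6 called.

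One of 21 genes of glycolysis and the hypoxia response was higher in FS and none lower (4.76%, against 8.7% of all genes), with a median of 0.20. That gene, hexokinase Hk1, was at 35.7, 38.02 and 40.3 CPM in FS and 29.6, 22.7 and 21.6 CPM in AFX (0.63 ± 0.19, adjusted p 0.0493), and its call was lost without FS passage 10, 11, 12, 13, 16 or 18 or AFX passage 15 or 16 (0.53 to 0.79). Among 9 antioxidant and metallothionein genes 1 was higher, the metal-binding Mt2, at 2.81, 10.2 and 16.2 and 2.09, 1.75 and 2.60 CPM (2.06 ± 0.56, adjusted p 0.0336), lost without FS passage 13 or 16 or AFX passage 14, 15 or 16 (1.82 to 2.25). None of 17 ATF4 target genes and none of 12 basement membrane genes was called, and of 13 p53 target genes 1 was lower, Gtse1 on chromosome 15.

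Gene copies were among the largest differences. A processed pseudogene is an intronless copy made from a messenger RNA, and reads that fit a gene and its copy nearly equally well can be assigned to either. Of 705 processed pseudogenes tested, 80 were called (11.3%, against 8.7% of all genes), 32 higher and 48 lower in FS. For 81 called copies, counting the retrocopy gene Gm10260, a protein-coding gene of at least 90% identity over at least 50% of the copy was found in GENCODE M21, and for 31 of them that gene encodes a ribosomal protein, as it did for 223 of the 631 tested copies with such a match. In 52 pairs the coding gene was called too, in the opposite direction in 25 and in the same direction in 27. Many of these pairs share a coding gene, among them Hmgb1, Rps2 and Rpl21, so that the pairs are not separate genes. Ftl1-ps2, Ftl2-ps and Gm12164 were matched to Ftl1-ps1 (-1.01) and count as the same direction. Ftl1 itself was called higher in FS, at 1.69. Each value in such a pair is uncertain on its own.

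The letters by which 2 such genes differ are few, as stretches of 60 coding bases show (GENCODE M21, GRCm38, sense strand, with capitals at the bases that differ). The stretches are shown because they are the sites on which the assignment of reads to gene or copy rests. Over 791 aligned coding bases Rps3a1 (chr3:86137940-86142702, minus strand) and Rps3a3 (chr13:108670603-108671397, plus strand) differed at 8.
Rps3a1: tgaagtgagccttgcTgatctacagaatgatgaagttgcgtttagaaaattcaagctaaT
Rps3a3: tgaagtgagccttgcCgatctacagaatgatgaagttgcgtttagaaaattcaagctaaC
Rps18 (chr17:33951999-33956001, minus strand) and Gm10260 (chr13:97760072-97760632, minus strand) differed at 4 of 456.
Rps18: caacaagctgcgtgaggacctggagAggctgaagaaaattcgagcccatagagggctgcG
Gm10260: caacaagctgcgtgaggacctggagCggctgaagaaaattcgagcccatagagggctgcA
Rplp0 (chr5:115559467-115563727, plus strand) and Gm8730 (chr8:102864845-102865798, minus strand) differed at 12 of 951.
Rplp0: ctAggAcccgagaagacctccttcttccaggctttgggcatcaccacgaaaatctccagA
Gm8730: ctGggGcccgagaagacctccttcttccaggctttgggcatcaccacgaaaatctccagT

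At Rps3a1, a component of the small ribosomal subunit, FS was at 246, 259 and 293 CPM and AFX at 118, 103 and 98.1 CPM (1.31 ± 0.10, adjusted p 1.39e-06). Its copy Rps3a3 moved the other way, at 16.4, 19.2 and 23.2 CPM in FS and 176, 171 and 169.9 CPM in AFX (-3.16 ± 0.12, adjusted p 1.71e-10). The sum of the 2 was 284 ± 17.002 CPM in FS (SD, n = 6) and 279 ± 13.9 CPM in AFX (SD, n = 3), so that the groups overlapped once gene and copy were added. AF was at 113, 125 and 104 CPM for Rps3a1 and 181, 219 and 168 CPM for Rps3a3, with AFX.

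Rplp0, of the ribosomal stalk, was at 1334, 1504 and 1648 CPM in FS and 672, 598 and 649 CPM in AFX (1.22 ± 0.092, adjusted p 8.07e-07), and its copy Gm8730 at 6.64, 9.004 and 19.3 CPM and 622, 588 and 608 CPM (-5.87 ± 0.24, adjusted p 3.09e-09). Their sum was 1496 ± 121 CPM in FS and 1246 ± 55.3 CPM in AFX, without overlap, but with a second called copy of Rplp0, Gm9625, added the sums were 1497 ± 121 and 1306 ± 54.6 CPM and overlapped. Rps18 was at 128, 142 and 181 CPM in FS and 479, 390.2 and 373 CPM in AFX (-1.47 ± 0.12, adjusted p 3.14e-06), and Gm10260 at 97.4, 111 and 147 CPM and 1.44, 1.08 and 0.716 CPM (6.70 ± 0.26, adjusted p 2.47e-10). Here the sum was 265 ± 33.7 CPM in FS and 415 ± 57.2 CPM in AFX and did not overlap. With the other called copies of Rps18, Gm11361 and Rps18-ps3, it was 299 ± 37.7 and 416 ± 57.6 CPM, with the highest FS sample at 370.5 CPM and the lowest AFX sample at 375 CPM.

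Rpl26 was at 286, 430.4 and 629 CPM in FS and 987, 832 and 799.7 CPM in AFX (-0.99 ± 0.25, adjusted p 0.0253), a call lost without AFX passage 14, 15 or 16 (-1.12 to -0.89). Its copy Gm15772 was at 199.8, 203 and 207 CPM in line 1, 478, 436 and 501 CPM in line 2 and 8.20, 3.90 and 3.94 CPM in AFX (5.94 ± 0.54, adjusted p 6.47e-05), and their sum, at 776 ± 39.9 CPM in FS and 879 ± 103 CPM in AFX, overlapped. Rps2 was at 223, 257 and 333 CPM in FS and 588, 521 and 484 CPM in AFX (-1.01 ± 0.13, adjusted p 1.73e-04), and its copy Rps2-ps10 at 100.4, 131 and 281 CPM and 13.4, 7.13 and 7.88 CPM (4.09 ± 0.44, adjusted p 1.51e-04). Their sum was 428 ± 117 CPM in FS and 540.4 ± 55.9 CPM in AFX and overlapped. Of 80 ribosomal protein genes tested, 3 were called higher, against 3.78% of all genes, and 11 lower, against 4.92%, with a median of -0.12. The ribosomal protein genes named here are those whose copies were called, and were chosen for that.

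The remaining large falls by the naming rule were copies or loci without a coding product. They were Gm4322, Ftl1-ps2, BC002163 and RP23-74O12.8, which are copies most similar to Bex4, Ftl1-ps1, Ndufs5 and Hmgb1, and the antisense locus Gm43803. Their medians in FS were at or under 0.563 CPM, and AFX was at 25.7, 19.1 and 24.3 CPM for Gm4322, 14.96, 13.2 and 13.4 CPM for Ftl1-ps2, 10.6, 9.96 and 13.1 CPM for BC002163, 55.0, 62.7 and 56.8 CPM for RP23-74O12.8 and 15.03, 12.9 and 14.6 CPM for Gm43803. AF did not differ from AFX past the threshold at any of the 5. Strand use in counting is not given in the sources used here, so the reads of Gm43803 cannot be separated from those of the gene opposite.

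**Figure D5:**
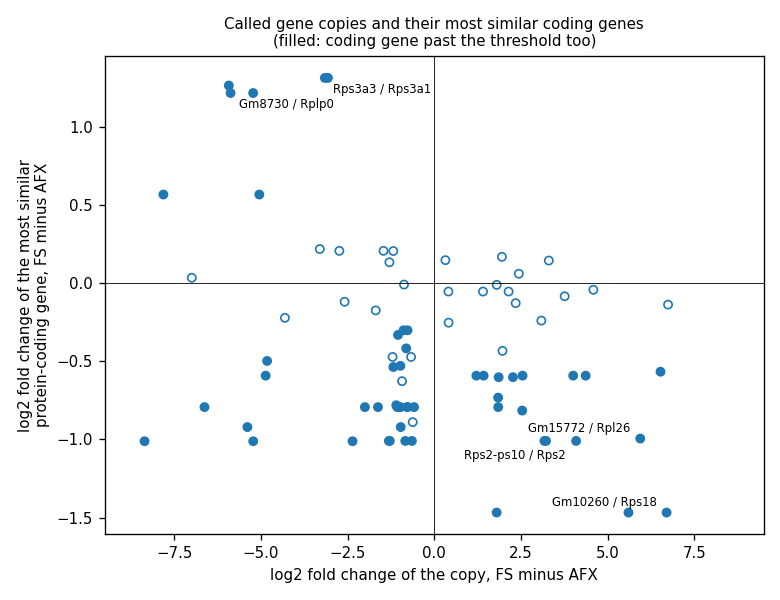
Log2 fold change, FS minus AFX, of each called gene copy (x axis) against that of its most similar coding gene (y axis), with filled circles where the coding gene was called too. The upper left and lower right corners hold the 25 pairs called in opposite directions, among them the 5 pairs named in the plot.

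The FS lines themselves differed at 618 genes, and 23 genes were called against AFX in both lines but in opposite directions, so that they fell outside the rule. Of the 1397 called genes, 56 also differed between the lines, against 3.85% of all genes tested. Gm15772, Bambi and Rnf17, given above, are among those 56, and differ in size but not in direction. Noct, Gpr37 and Scd3, named after their values were seen, are examples of opposite directions. Noct, a circadian phosphatase, was at -2.42 in line 1 and 0.72 in line 2 on the log2 scale against AFX. Scd3, a desaturase beside Scd1, was at -2.93 and 1.60, and Gpr37 at -1.59 and 1.46.

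AFX also differed from AF at 1401 of 16052 genes (8.73%), a comparison that shares the AFX samples with that of FS, so that a high or low AFX value enters both. Nudt12, Myh9, Fads1, Tm7sf2, Tapbp, Sycp3 and Rnf17 were genes where AFX stood apart from FS and AF alike. Hprt, Scd1, Slc15a2, Ehd3 and the gene copies named above were genes where AF and AFX did not differ past the threshold, and Peg10, Bmp2 and Cfc1 were lowest in FS and highest in AF. These groupings describe the levels given above, and line, medium and passage history cannot be told apart in them.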

How the data were processed

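The deposited file holds raw counts per gene, whole numbers that the authors did not normalize, for 33861 Ensembl mouse genes with symbols in 21 samples. Reads were trimmed with Trim Galore, aligned with TopHat2 2.1.0 to mm10 and counted with featureCounts 1.5.0, per the submitters' processing notes. The settings for multimapping reads and strand and the annotation release are not given in the sources used here, and they bear on gene copies and antisense loci. Gene types and positions come from GENCODE M21 (GRCm38), where 16010 of the 16052 tested identifiers matched.

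Samples were grouped by their titles. The 12 cultured samples were fitted together with edgeR 4.0.16 in R 4.3.3 (filterByExpr, TMM, robust quasi-likelihood F-test, two-sided, Benjamini-Hochberg), with FS as 1 group, AFX and AF, and the FS lines were separated in a second fit for their directions. The members, the 26 gene lists (433 genes, from general knowledge) and the alternatives were chosen with earlier results of these data known. Called genes without overlap were named by size, as the 8 rising and 8 falling with a mean of at least 10 CPM and the 5 and 5 with at least 100 CPM, together with fixed members of each list and up to 4 called genes per list, and other named genes were chosen after their values were seen. The result for 1 called list gene is not reported here. Where every sample of a group had at most 3 counts, a bound against 3 counts per sample replaces the fold change. Bounds and depth cover counting error only. A count of 3 was 0.181 to 0.404 CPM in FS and AFX. The most similar coding gene of a copy was found with blastn 2.17.0. Counting steps were tested on simulated data with FS against AFX changes of known size. There 45% of 2-fold and 83% of 4-fold changes were called, with 5 false among 133 calls. A gene not called can therefore still differ by 2-fold. Alternatives were DESeq2 1.42.0 (size factors, Wald test), other filters and sample sets, each sample left out, and, added after seeing the data, fits without loci above 1% of counts or without chromosome 15 or chromosomes 11, 15 and 17.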

Additional observations from a re-analysis of the deposited data

Results flagged for a closer look

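Single samples stood far from the rest of the 6 FS samples, by the gap to the nearest sample relative to the range, at 6 of 110 named genes examined. Chance alone would set apart about 1 in 20 groups by this measure, so that 6 of 110 is near what chance gives. Line 2 passage 13 was high at Ccl19 (17.9 CPM) and at Gm43803 (0.112 CPM, a single count). Line 1 passage 18 was low at Gm4322 (0 CPM), Meis1 (6.27 CPM) and Fads1 (156 CPM), and line 1 passage 10 was low at Id4 (0.637 CPM). FS still did not overlap AFX at any of these 6 genes.

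At 10 of 110 named genes examined the FS lines differed from each other, against 3.85% of all genes tested. The threshold was an adjusted p of 0.05 in edgeR's test of line 2 minus line 1. The 110 leave out genes named only after their values were seen, and include Xist, Ddx3y and H19, which were fixed by name. On the log2 scale the difference was 1.21 for Gm15772, -1.07 for Rps2-ps10, 0.59 for Dusp6, 7.38 for H19, 0.60 for Meg3, -3.91 for Postn, -9.88 for Xist, 8.68 for Ddx3y, 1.18 for Bambi and 2.45 for Rnf17. In Gm15772, Rps2-ps10, Bambi and Rnf17 both lines lay on the same side of AFX, so the lines differed in size. The same held for Dusp6 and Xist, which were not called against AFX. In H19, Postn and Ddx3y they lay on opposite sides, as in Meg3, where line 1 was close to AFX (-0.0065).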

How the results depend on the processing

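Of 101 named genes called between FS and AFX, 66 kept their call under every alternative fit that tested them, and none changed direction. A gene that an alternative removed was not tested in it. This holds for chromosome 15 genes in the fits without that chromosome. The count of called genes was 1389 with DESeq2 size factors, 1352 without a filter, 1023 with a mean of at least 5 CPM, 1433 with FS and AFX alone, 1394 without loci above 1% of counts, 1072 with line 1 alone, 1930 with line 2 alone, 2014 with the lines as separate groups and 1973 by the DESeq2 Wald test, which called 931 genes higher. Without chromosome 15 it was 1015, of which 505 were lower, and without chromosomes 11, 15 and 17 it was 899, of which 437 were lower.

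Leaving out 1 sample at a time gave 820 to 1485 called genes, 295 to 602 higher and 511 to 883 lower, with 820 and 511 reached without AFX passage 16 and 295 without AFX passage 15. The same ranges were 1280 to 1894 for line 2 against AFX, 316 to 478 between the lines and 732 to 1129 for AFX against AF, where the lowest counts fell without line 2 passage 13, line 1 passage 11 and AFX passage 15. No paired analysis was possible between FS and AFX because they share a single passage number. For AFX against AF a replicate block of passage gave 907 calls in place of 1401. The numbers do not pair these samples, since samples with the same passage number correlated at -0.13, -0.10 and 0.20 in their deviations from the group means, and not every sample correlated best with its own number.

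Directions turned for genes that were not called. With FS line 1 alone these were Zfp42 0.20, Nodal 0.33, Dhrs3 -0.56, Cyp26a1 0.17, H19 -3.91, Meg3 -0.0029, Col1a1 -0.34. With FS line 2 alone these were Pou3f1 0.031, Sp5 -3.67, Sox1 -0.91, Cdh1 -0.073, Postn -2.14, Ddx3y 0.39. With the FS lines as separate groups these were Sp5 -1.15, Dhrs3 -0.049, Sox1 -0.0049, H19 -0.22, Postn -0.17. Over the fits that each left out 1 sample the values ran, where the sign turned, as follows: Pou5f1 -0.19 to 0.040, Zfp42 -0.65 to 0.64, Klf5 -0.49 to 0.083, Mixl1 -1.65 to 0.56, Nodal -0.93 to 1.53, Lefty1 -3.94 to 2.68, Lefty2 -4.04 to 1.61, Sp5 -2.17 to 0.71, Rarb -2.46 to 0.63, Dhrs3 -0.21 to 0.22, Sox1 -0.14 to 0.66, Pax6 -1.94 to 0.51. Causes were not tested. At this depth, genes near 3 counts per sample, such as Zfp42, Rarb and Mixl1, allow no direction.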
